A study of Mus musculus with 9 samples.

Results

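The genes described here serve excision repair of bulky DNA lesions and the repair, bypass and signalling of crosslinks between DNA strands. They are 47 mouse genes chosen by name from the 57010 genes of the deposited tables: the nucleotide excision repair factors with the ligase and helicase complexes they work with, the gap-filling and ligation genes, Fanconi anaemia genes, homologous recombination genes, translesion polymerase genes and a pair of checkpoint kinases. All 47 were found in the tables under their symbols. RNA was sequenced from liver of male BALB/c mice, with 3 libraries in each of the groups CON, CPT and AT3. CON is labelled as having no treatment. CPT and AT3 carry 1 and the same treatment label, an acute liver injury caused by cisplatin, which the series' design text says was injected, so every AT3 library comes from cisplatin-injured liver as well. AT3 is not spelled out there, and the series title names atractylenolide III, a sesquiterpene lactone from Atractylodes rhizomes. Dose, route, age and time after injection are not stated in the labels. The labels do not say that a group's libraries come from different mice, and a p-value here covers only the spread between libraries, some of which may be technical.

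Cisplatin binds to guanines and joins neighbouring bases of a strand or, less often, bases of opposite strands. Lesions within a strand are removed mainly by nucleotide excision repair: XPC with RAD23B and centrin 2, a CUL4 ubiquitin ligase with DDB1, or a stalled RNA polymerase with CSB and CSA finds the lesion, TFIIH opens the helix, XPA and RPA hold the opened strands, and nucleases cut out the damaged stretch, which PCNA-bound polymerases and a ligase then fill and seal. Crosslinks between strands are handled by the Fanconi anaemia proteins together with translesion polymerases and homologous recombination, under control of the ATR and CHK1 kinases. In adult liver most hepatocytes are not dividing, and genes used mainly in replicating cells have low transcript levels there.

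The deposited estimated counts summed to between 21485021 and 28480479 per library. Of the 47 genes, 42 passed the filter on low counts and entered the test over 13686 genes. Fanca, Fancd2, Fanci, Palb2 and Chek1 did not pass. Transcripts of the mitochondrial genome took 25.8 to 36.8% of a CON library, 11.2 to 16.3% of a CPT library and 9.79 to 11.4% of an AT3 library, so the other genes share a different part of each library, and values below are CPM (a gene's counts relative to the library size after TMM scaling, which sets the bulk of genes equal between libraries) unless another unit is named. All 10 hepatocyte markers were found in every group, and their sum ranged from 77612 to 82165 CPM among CON libraries, from 62396 to 83766 among CPT and from 96069 to 103576 among AT3. Summed sinusoidal endothelial markers ranged over 141 to 144 CPM in CON, 16.6 to 21.9 among CPT libraries and 16.5 to 27.99 among AT3 libraries. For stellate cell markers the ranges were 349 to 419, 68.7 to 77.2 and 47.02 to 60.8 CPM, and for neutrophil markers 4.44 to 5.002, 25.6 to 53.7 and 14.6 to 14.9 CPM. In the same group order, erythroid markers summed to 798 to 908, 42.7 to 50.9 and 38.4 to 44.5 CPM, lymphoid markers to 4.36 to 4.95, 0.769 to 1.28 and 0.787 to 1.11, Kupffer cell markers to 46.04 to 60.2, 23.9 to 30.1 and 28.3 to 32.95, and biliary markers to 15.8 to 20.9, 17.4 to 22.04 and 21.6 to 25.3. The part of these cell types in the levels of the repair genes was not tested, and in such bulk RNA fewer cells of a type and less RNA per cell cannot be told apart.

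In CPT against CON the repair genes split. By edgeR's quasi-likelihood test with Benjamini-Hochberg adjustment over all genes, 16 of the 42 tested genes rose and 8 fell, 18 did not pass, and they had a median log2 fold change of 0.0048 against -0.019 over all genes tested. These 57.1% called stand beside a background of 60.8% of all genes tested (30.0% higher and 30.8% lower), so the list as a whole was called no more often than genes in general. On either TPM scale 22 were called higher and 0 lower, and without CON replicate 1 or CPT replicate 1 the genes called lower numbered 5. Of the 8 fallers, 4 kept their call without CON replicate 2 and 4 without CPT replicate 1. The rises were led by Brca1, Mnat1, Ddb1, Ercc1, Polh, Pcna, Gtf2h1, Cdk7, Cul4a and Rpa2, all at a fold change of 2.04 or more, and the falls by Brca2 and Rpa3. The libraries of the groups did not overlap for 25 members (18 higher and 7 lower in CPT), against 64.2% of all genes tested.

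**Figure D1:**
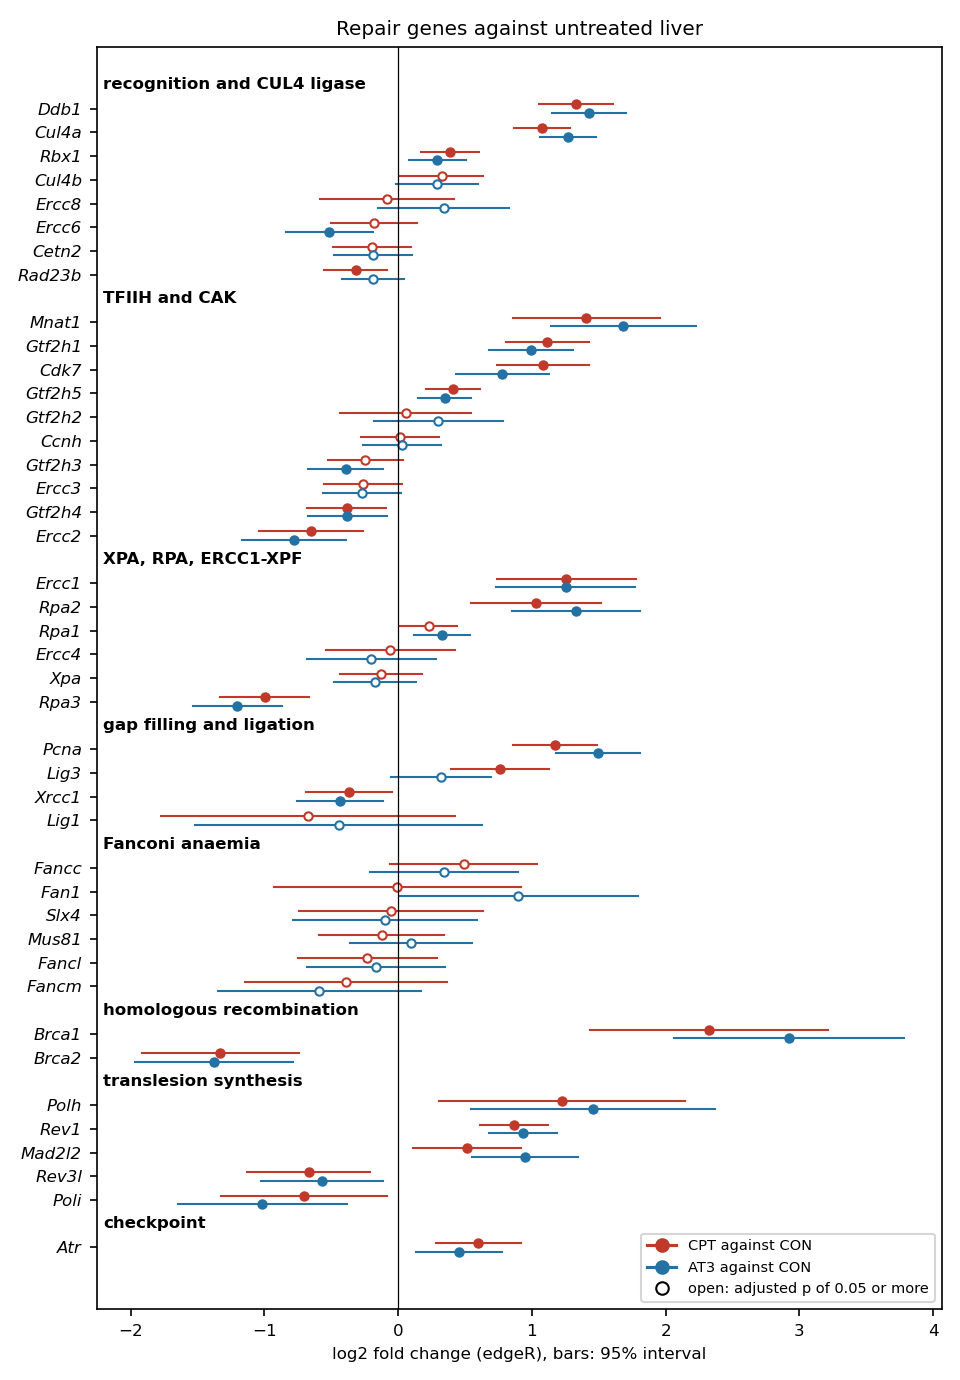
Log2 fold changes (horizontal axis) of the 42 tested repair genes against CON, grouped by role, for CPT (red) and AT3 (blue), with 95% intervals from edgeR. Filled points have an adjusted p below 0.05. Within most role groups some genes lie right of 0 and others left of it, from Brca1 at 2.33 to Brca2 at -1.33 in CPT.

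Among the 8 lesion recognition genes, 3 rose, 1 fell and 4 were not called, that is 50% called beside 60.8% of all genes tested. The genes that rose form the CUL4A ubiquitin ligase. Ddb1 (ENSMUSG00000024740, chr19:10605327-10629819 on GRCm38), the adaptor that links damage sensors to the ligase, stood at 40.2, 39.4 and 40.1 CPM in CON, at 86.2, 87.8 and 127 in CPT and at 109, 105 and 108 in AT3. All 6 libraries from cisplatin-injured liver lay above all 3 of CON, with a fold change of 2.51 in CPT (log2 1.33, SE 0.13, adjusted p = 3.57e-07), and CPT replicate 3 stood above the other libraries of its group. Cul4a, the scaffold of the ligase, measured 18.8, 17.9 and 17.2 CPM in CON, 35.4, 35.9 and 42.6 in CPT and 42.1, 43.8 and 44.6 in AT3, a fold change of 2.11 in CPT (adjusted p = 1.91e-07). Rbx1, its RING subunit that binds the ubiquitin-carrying enzyme, measured 40.9, 43.9 and 35.1 CPM in CON and 56.3, 52.7 and 48.0 in CPT, with 49.5, 48.5 and 49.0 in AT3. That is a rise by 1.31-fold (adjusted p = 0.00359), less than those of its partners, without overlap between CON and CPT.

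Cul4b, the X-linked sister of Cul4a, was at 3.87 CPM ± 0.35 (SD, n = 3) in CON and 4.87 ± 0.21 in CPT and was not called (log2 fold change 0.32, adjusted p = 0.064), although its libraries did not overlap either. Rad23b, the partner of XPC that also escorts ubiquitinated proteins to the proteasome, fell from 70.4 CPM ± 9.88 to 56.4 ± 5.37 (log2 fold change -0.32, adjusted p = 0.0206), a direction that turned on the TPM scale (values for that scale follow the ratios). The call for Rad23b was lost without CON replicate 3 (adjusted p = 0.131) or CPT replicate 1 (adjusted p = 0.178), while Cul4b was called higher without CON replicate 2 (adjusted p = 0.0465) or CPT replicate 1 (adjusted p = 0.0367). Cetn2, encoding centrin 2, and the transcription-coupled repair genes Ercc6 (CSB) and Ercc8 (CSA) had log2 fold changes of -0.19, -0.18 and -0.08 and were not called. The damage sensors themselves, which are not among the 47 genes, were not called either: Xpc had a log2 fold change of -0.28 (adjusted p = 0.291) and Ddb2, the damage-binding partner of Ddb1, of -0.39 (adjusted p = 0.268).

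TFIIH is a helicase complex of a core and a cyclin-dependent kinase module, used both for starting transcription and for opening DNA around a lesion. Of its 10 genes 4 rose, 2 fell and 4 were not called, so 60% were called, near the 60.8% of all genes tested. The rises included both kinase module partners of cyclin H. Mnat1, encoding the assembly factor MAT1, stood at 0.787, 1.06 and 1.07 CPM in CON, 1.91, 2.68 and 3.23 in CPT and 3.05, 3.07 and 3.33 in AT3. Cdk7, the kinase, stood at 4.05, 2.98 and 3.38 CPM in CON, 7.28, 8.22 and 6.34 in CPT and 5.22, 5.95 and 6.55 in AT3. Both were higher in every library of CPT than in any of CON, by 2.65-fold for Mnat1 (log2 1.41, SE 0.26, adjusted p = 0.000227) and 2.12-fold for Cdk7 (log2 1.08, SE 0.16, adjusted p = 3.3e-05). Ccnh, encoding cyclin H, the third subunit of that module, measured 7.33 CPM ± 0.96 in CON and 7.44 ± 1.02 in CPT, with a 95% interval of its log2 fold change from -0.28 to 0.31.

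In the core, Gtf2h1 was at 6.46, 4.75 and 4.28 CPM in CON, 11.2, 11.02 and 11.3 in CPT and 10.99, 10.8 and 8.92 in AT3. The CPT libraries lay close together and above all CON libraries (fold change 2.17, adjusted p = 8.92e-06). Gtf2h5, the smallest core subunit, mutated in a form of trichothiodystrophy, rose by 1.33-fold (37.4 CPM ± 2.87 in CON, 49.6 ± 1.88 in CPT, adjusted p = 0.00136). Ercc2, the XPD helicase, fell on the TMM scale (7.79 CPM ± 1.47 to 4.97 ± 0.96, log2 fold change -0.65, adjusted p = 0.00595), a direction that turned on both TPM scales. Gtf2h4 fell as well (6.71 CPM ± 0.89 to 5.16 ± 0.23, log2 fold change -0.38, adjusted p = 0.0262), but not without CON replicate 1, CON replicate 2, CPT replicate 1 or CPT replicate 2, each left out in turn (adjusted p of 0.0743 to 0.104). Ercc3, the XPB translocase, Gtf2h2 and Gtf2h3 were not called, with log2 fold changes from -0.26 to 0.06, though Ercc3 was called lower without CON replicate 2 (log2 fold change -0.37, adjusted p = 0.0404).

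In the group that verifies the lesion and cuts, Ercc1 and Rpa2 rose, Rpa3 fell, and Xpa, Rpa1 and Ercc4 were not called. These 50% called stand beside 60.8% of all genes tested. Ercc1, the DNA-binding subunit of the nuclease that cuts on the 5′ side of the lesion and unhooks crosslinks, measured 1.18, 0.942 and 1.46 CPM in CON, 2.65, 2.93 and 2.88 in CPT and 3.05, 2.23 and 3.19 in AT3. It rose by 2.39-fold in CPT (log2 1.26, SE 0.24, adjusted p = 0.000377) with no overlap. Ercc4, encoding XPF, the catalytic subunit that is unstable without ERCC1, stood at 3.29 CPM ± 0.43 in CON and 3.15 ± 0.96 in CPT (log2 fold change -0.06, 95% interval -0.54 to 0.42). Xpa, which ERCC1 binds, was at 7.95 CPM ± 1.69 and 7.31 ± 0.28.

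Replication protein A, the trimer that coats single-stranded DNA, had its transcripts moved apart. Rpa2, whose protein is phosphorylated on DNA damage, measured 1.57, 1.37 and 1.86 CPM in CON, 3.25, 2.49 and 4.04 in CPT and 3.74, 3.79 and 4.44 in AT3, a rise by 2.04-fold (adjusted p = 0.00112). Rpa3, the smallest subunit, measured 10.3, 13.5 and 9.34 CPM in CON, 5.94, 6.04 and 4.69 in CPT and 4.396, 5.36 and 4.73 in AT3. No library of CPT or AT3 reached the lowest Rpa3 value of CON in CPM (log2 fold change -0.996, SE 0.16, adjusted p = 5.12e-05 in CPT). On log2(TPM + 0.1) the Rpa3 difference was -0.36 and not called (limma, adjusted p = 0.181), with 10.79 to 21.09 TPM in CON and 10.01 to 12.68 in CPT. Rpa1, the large DNA-binding subunit, was at 14.2 CPM ± 0.71 in CON and 16.7 ± 0.87 in CPT, not called (log2 fold change 0.23, adjusted p = 0.058) except without CPT replicate 1 (adjusted p = 0.0232), with DESeq2's size factors, without the filter on low counts and on the TPM scales.

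The start regions of Rpa2 and Rpa3 are shown because their transcripts moved in opposite directions while their proteins work in 1 complex. Each window runs from 250 bases before to 50 after the annotated start, 5′ to 3′ on the gene's strand, from RefSeq on GRCm38.p6 (Rpa2 chr4:132768110-132768409, plus strand, Rpa3 chr6:8259092-8259391, minus strand). Capitals mark matches on either strand to CCAAT, the letters bound by NF-Y, and to CCGGAAG, a core bound by ETS factors. In Rpa3 the last ETS-type capitals are 2 overlapping matches on opposite strands.
Rpa2: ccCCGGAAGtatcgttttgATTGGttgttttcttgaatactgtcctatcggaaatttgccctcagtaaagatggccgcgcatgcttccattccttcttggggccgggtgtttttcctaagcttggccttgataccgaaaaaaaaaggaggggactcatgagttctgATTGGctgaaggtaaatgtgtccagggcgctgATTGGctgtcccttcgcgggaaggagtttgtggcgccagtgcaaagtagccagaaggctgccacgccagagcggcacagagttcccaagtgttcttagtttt
Rpa3: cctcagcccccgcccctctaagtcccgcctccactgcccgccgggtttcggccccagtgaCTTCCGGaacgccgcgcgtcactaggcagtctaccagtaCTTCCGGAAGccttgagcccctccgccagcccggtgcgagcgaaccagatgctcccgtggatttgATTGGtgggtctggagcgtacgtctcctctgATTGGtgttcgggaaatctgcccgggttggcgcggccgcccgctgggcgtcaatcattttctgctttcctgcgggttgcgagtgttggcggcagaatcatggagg
Both windows hold both kinds of letters, although the transcripts went opposite ways: Rpa2 has 3 matches to CCAAT and Rpa3 has 2. CCAAT was found in 37.4% and CCGGAAG in 8.86% of 32851 mouse start windows of the same length. Of the 47 genes 42 had a window, and among these 21 held CCAAT and 7 held CCGGAAG. These are counts of genes, while the percentages are shares of windows. A match is a description of the letters, not evidence that a factor binds there.

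Of the 4 gap-filling and ligation genes, Pcna and Lig3 rose, Xrcc1 fell and Lig1 was not called. That is 75% called, beside 60.8% of all genes tested. Pcna, the sliding clamp, measured 3.71, 6.20 and 5.24 CPM in CON, 10.8, 11.7 and 12.03 in CPT and 14.6, 13.5 and 15.1 in AT3. The rise in CPT was 2.25-fold (log2 1.17, SE 0.15, adjusted p = 6.26e-06), and all 3 groups were apart in their CPM. Lig3, the ligase that seals many excision repair gaps in non-dividing cells, measured 2.98, 3.85 and 4.05 CPM in CON, 5.30, 5.79 and 7.46 in CPT and 4.82, 4.70 and 4.08 in AT3, a rise by 1.70-fold in CPT (adjusted p = 0.00137). Its scaffold Xrcc1 measured 8.88, 8.87 and 6.70 CPM in CON, 6.50, 5.32 and 7.23 in CPT and 6.37, 5.39 and 6.41 in AT3. CON and CPT overlapped for Xrcc1, and its call was close to the threshold (log2 fold change -0.37, adjusted p = 0.0464). It was lost without CON replicate 1, CON replicate 2, CPT replicate 1 or CPT replicate 2, each left out in turn (adjusted p of 0.111 to 0.215). Lig1, the ligase of replicating cells, had 6 to 22 counts in a library and a 95% interval of its log2 fold change from -1.77 to 0.43.

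**Figure D2:**
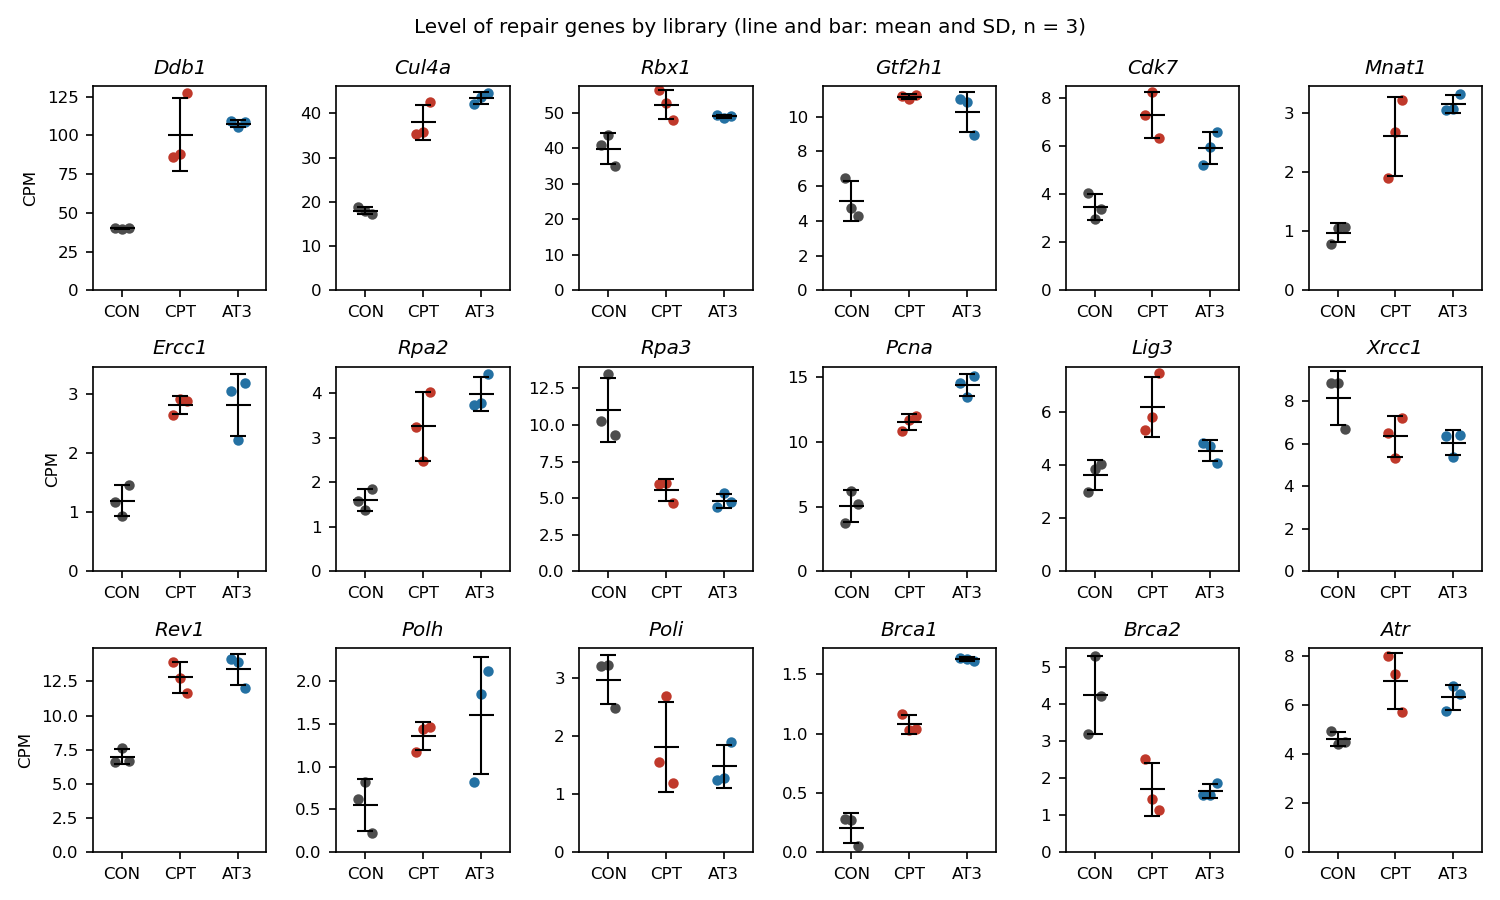
CPM (vertical axes, from 0) of 18 repair genes in each library of CON, CPT and AT3, with the mean and SD of 3 libraries a group. Ddb1, Cul4a, Gtf2h1, Pcna, Rev1 and Brca1 have all CPT and AT3 points above all CON points, and Rpa3 and Brca2 have them below.

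None of the 6 tested Fanconi anaemia genes was called by edgeR in CPT against CON, where 60.8% of all genes tested were called. An unadjusted p below 0.05 was found for 0 of the 6. DESeq2 called none of the 6, and limma on the TPM scale called Fancc higher. Fancc, a subunit of the core complex that ubiquitinates FANCD2, had the largest difference: it measured 1.80, 1.45 and 1.07 CPM in CON, 2.33, 1.90 and 1.85 in CPT and 2.001, 1.60 and 1.90 in AT3. CON and CPT did not overlap for Fancc, but its log2 fold change of 0.49 had an adjusted p of 0.112. Fancl, the ubiquitin ligase of the core complex, Fancm, its DNA translocase, the nuclease genes Fan1 and Mus81 and the nuclease scaffold Slx4 had log2 fold changes from -0.39 to -0.01. The interval was widest for Fan1, from -0.93 to 0.92, and Fan1 had 4 to 20 counts in a library.

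The other 3 Fanconi genes, Palb2 and Chek1 were too low to test at this depth. Fancd2, encoding the protein that marks a crosslink once ubiquitinated, had 2 counts over the 3 CON libraries, 0 over those of CPT and 1 over those of AT3; a count of 0 allows up to 3 counts in a library. Its partner Fanci had 8.17, 6.96 and 8.28 estimated counts in the same order. Fanca, a core complex scaffold, had 30.83 estimated counts over the CON libraries, 5.13 over CPT and 17.65 over AT3, and Palb2, which joins BRCA1 to BRCA2, had 34, 13 and 15. Without the filter edgeR called both lower in CPT than in CON (adjusted p = 0.00108 for Fanca and 0.0238 for Palb2). DESeq2 called both lower too (adjusted p = 0.00678 and 0.0421). With the filter, edgeR called Fanca lower when CON replicate 2 or any single CPT or AT3 library was left out. It did not without CON replicate 1 or CON replicate 3. However, 17.75 of the Fanca counts came from CON replicate 1 alone and CON replicate 2 had 2.25. Zfp276, on the other strand, shares 10.5% of the exonic bases of Fanca and was lower in CPT too (28.9 CPM on average in CON, 13.5 in CPT, log2 fold change -1.10, adjusted p = 2.6e-05); its part in the Fanca counts was not tested. Chek1, the kinase activated by ATR, had 13 counts over CON, 40 over CPT and 21 over AT3 (adjusted p = 0.199 for CPT against CON without the filter).

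Among the called repair genes Brca1 had the largest rise and Brca2 the largest fall in CPT against CON by edgeR. Brca1, which acts in the resection of broken ends, stood at 0.281, 0.275 and 0.0563 CPM in CON, 1.17, 1.03 and 1.04 in CPT and 1.64, 1.63 and 1.61 in AT3. These levels rest on 13 counts over the 3 CON libraries, 93 in CPT and 147 in AT3. Every library of injured liver was above every CON library, and the fold change in CPT was 5.01 with a wide 95% interval of the log2 value from 1.44 to 3.22 (adjusted p = 0.000189). Brca2, which acts after resection in homologous recombination, stood at 3.20, 5.30 and 4.22 CPM in CON, 2.51, 1.43 and 1.15 in CPT and 1.54, 1.54 and 1.86 in AT3. It fell without overlap in CPM (log2 fold change -1.33, SE 0.28, adjusted p = 0.000685), but on log2(TPM + 0.1) the difference was -0.48 and not called (limma, adjusted p = 0.154), and in TPM the CON libraries (1.80 to 3.57) and CPT libraries (1.37 to 2.39) overlapped.

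The start windows of this pair are printed for the same reason as those of the RPA genes (Brca1 chr11:101551906-101552205, minus strand, Brca2 chr5:150522371-150522670, plus strand, RefSeq on GRCm38.p6). Capitals mark TGACGT on either strand, the letters that, on both strands, make up a cyclic AMP response element.
Brca1: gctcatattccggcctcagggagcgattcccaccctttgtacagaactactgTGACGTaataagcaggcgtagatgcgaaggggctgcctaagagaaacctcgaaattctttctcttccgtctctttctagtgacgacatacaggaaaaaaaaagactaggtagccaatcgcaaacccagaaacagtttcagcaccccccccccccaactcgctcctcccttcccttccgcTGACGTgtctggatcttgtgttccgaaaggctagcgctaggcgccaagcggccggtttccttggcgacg
Brca2: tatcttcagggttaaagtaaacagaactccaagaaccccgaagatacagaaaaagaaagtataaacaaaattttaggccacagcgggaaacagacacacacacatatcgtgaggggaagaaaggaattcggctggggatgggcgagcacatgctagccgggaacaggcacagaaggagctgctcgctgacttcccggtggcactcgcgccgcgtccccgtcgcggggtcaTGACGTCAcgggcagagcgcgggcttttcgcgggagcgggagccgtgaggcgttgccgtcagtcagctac
Brca1 holds 2 separate matches, with first bases 198 and 19 before the start, and Brca2 holds 2 matches that overlap on opposite strands, starting 20 and 18 before it. TGACGT was found in 7.51% of all windows and in those of 5 repair genes, Cul4a, Gtf2h5, Cdk7, Brca1 and Brca2, of which the first 4 rose and Brca2 fell. Of the 42 genes with a window, 27 held GGGCGG, the letters bound by SP1. Of all windows 35.7% held it, a share of windows and not of genes, so enrichment was not tested. The 27 genes included 13 of the 16 risers and 3 of the 6 fallers with a window. For CCAAT the split was 5 of the 16 risers and 5 of the 6 fallers, and for CCGGAAG 4 and 1. A p53 response element was searched on either strand, with a spacing of 0 to 13 bases between its parts. It was in no window of the 42 genes and in 0.0731% of all windows. This says only that the letters are not in these 300 bases.

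All 5 translesion synthesis genes were called in CPT against CON, 3 higher and 2 lower, where 60.8% of all genes tested were called. Polh, encoding the polymerase that copies past platinum adducts, measured 0.618, 0.824 and 0.225 CPM in CON, 1.17, 1.43 and 1.46 in CPT and 0.820, 1.85 and 2.11 in AT3. CON and CPT did not overlap (fold change 2.34, log2 SE 0.43, adjusted p = 0.023), but the call was lost without CON replicate 3, where the log2 fold change was 0.89 (adjusted p = 0.0904), and without CPT replicate 2, where it was 1.19 (adjusted p = 0.0536). Rev1, the scaffold that recruits the other bypass polymerases, measured 6.63, 7.62 and 6.70 CPM in CON, 13.9, 12.8 and 11.7 in CPT and 14.1, 13.9 and 12.04 in AT3, a rise by 1.82-fold (adjusted p = 1.44e-05). Poli, a further bypass polymerase, measured 3.20, 3.22 and 2.48 CPM in CON, 1.55, 2.68 and 1.19 in CPT and 1.25, 1.28 and 1.90 in AT3. CPT replicate 2 reached into the CON range, and the fall was near the threshold (log2 fold change -0.70, adjusted p = 0.048). It did not pass without CON replicate 1, CON replicate 2, CPT replicate 1 or CPT replicate 3, each left out in turn (adjusted p of 0.118 to 0.182).

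Transcripts of polymerase zeta, which extends from a bypassed crosslink, also went apart. Its catalytic subunit Rev3l fell from 3.43 CPM ± 0.56 to 2.16 ± 0.41 (log2 fold change -0.67, adjusted p = 0.0143, a direction that turned on log2(TPM + 0.1)), and its accessory subunit Mad2l2 was called higher (log2 fold change 0.52, adjusted p = 0.0285). Mad2l2 measured 6.46, 8.20 and 6.76 CPM in CON, 7.70, 8.81 and 14.5 in CPT and 13.6, 13.9 and 14.1 in AT3. Its rise in CPT rests on CPT replicate 3, without which the log2 fold change was 0.21 (adjusted p = 0.178), and the call was also lost without CON replicate 1 (adjusted p = 0.0941) or CON replicate 3 (adjusted p = 0.0788). For Rev3l it was lost without CON replicate 2 (adjusted p = 0.0683) or CPT replicate 3 (adjusted p = 0.0603). Atr, the kinase that senses RPA-coated DNA, measured 4.95, 4.44 and 4.50 CPM in CON, 7.99, 7.25 and 5.73 in CPT and 5.77, 6.77 and 6.45 in AT3. It rose by 1.52-fold in CPT, without overlap (adjusted p = 0.00264).

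Ratios between partner genes within a library do not depend on how libraries are scaled. Counts per base of deposited gene length were divided for 14 pairs that work in 1 complex or step. The pairs were chosen after their values were seen, often a gene that rose against one that did not, so their ratios describe these genes with no test, and how many pairs moved says nothing of partner genes in general. The Brca1 to Brca2 ratio was 0.140, 0.0830 and 0.0213 in CON, 0.744, 1.15 and 1.44 in CPT and 1.70, 1.70 and 1.38 in AT3. The deposited TPM gave another order in AT3, with Brca1 at 0.26, 0.26 and 0.23 TPM and Brca2 at 2.11, 1.75 and 2.05. Which gene was the more abundant per length in AT3 is therefore not settled, while in CON Brca2 was on both measures. The Rpa2 to Rpa3 ratio was 0.0565, 0.0376 and 0.0735 in CON, 0.202, 0.152 and 0.318 in CPT and 0.314, 0.261 and 0.347 in AT3. Polh per Poli went from 0.154 ± 0.0715 (SD, n = 3) to 0.718 ± 0.303, and Ercc1 per Ercc4 from 0.936 ± 0.286 to 2.43 ± 0.805. In the kinase module, Mnat1 per Ccnh went from 0.0913 ± 0.0145 to 0.249 ± 0.0971 and Cdk7 per Ccnh from 0.418 ± 0.107 to 0.848 ± 0.0615. In the ligase, Cul4a per Cul4b went from 4.20 ± 0.507 to 6.99 ± 0.597 and Ddb1 per Rbx1 from 0.379 ± 0.0466 to 0.732 ± 0.230. Ercc2 per Ercc3, with a log2 change of -0.39, and Ercc6 per Ercc8, with -0.10, overlapped between CON and CPT.

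**Figure D3:**
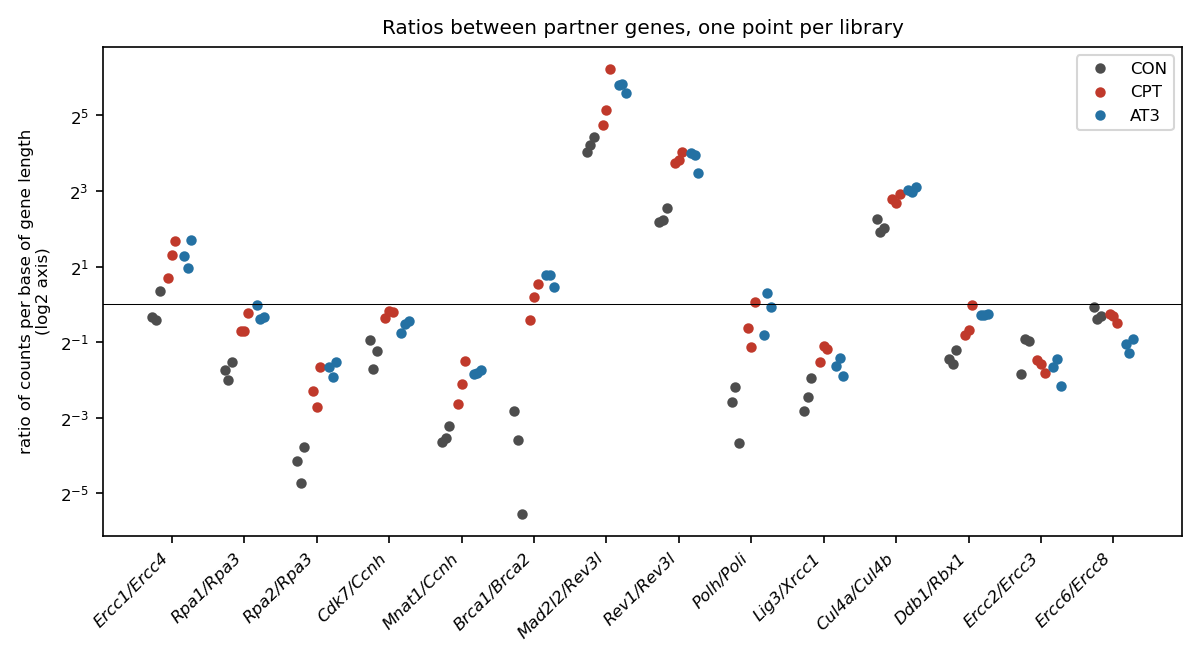
Ratio of counts per base of gene length (vertical axis, log2 scale) between partner genes, 1 point per library. The 14 pairs were chosen after their values were seen. The Brca1/Brca2 ratio lies between 0.0213 and 0.140 in CON and between 0.744 and 1.44 in CPT, while CON and CPT points overlap for Ercc2/Ercc3 and Ercc6/Ercc8.

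Per transcript length and library (TPM), Rbx1 and Gtf2h5 had ranks 1 and 2 among the 47 genes in all 3 groups, at 37.6 TPM ± 9.81 and 30.7 ± 2.03 in CON. Rpa3 had rank 3 in CON at 15.2 TPM ± 5.31. Cul4a and Ddb1 had ranks 3 and 4 in CPT at 22.6 TPM ± 2.84 and 22.5 ± 5.71, a difference within their spread, from ranks 9 and 11 in CON. Pcna had rank 16 in CON at 2.60 TPM ± 1.16, rank 10 in CPT at 8.67 ± 0.992 and rank 7 in AT3 at 11.1 ± 0.448. Brca1 was next to last in CON at 0.02 TPM ± 0.0173, below Fan1 at 0.06 ± 0.0346, and Fancd2 was last in every group.

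Whether a gene fell depended on the scale. In TPM, which carry no TMM scaling, the median of all genes tested was 0.29 higher in CPT than in CON on log2(TPM + 1) and 0.51 higher on log2(TPM + 0.1). With limma on either scale 22 repair genes were called higher and 0 lower, where 6631 of all genes tested were called higher and 1604 lower on log2(TPM + 1). All 16 genes called higher on the TMM scale were among the 22, joined by Rpa1, Fancc, Ccnh, Gtf2h3, Cul4b and Cetn2. Rad23b and Ercc2 turned to positive differences on both TPM scales and Rev3l on log2(TPM + 0.1), and the other 5 fallers stayed negative without passing the test. Relative to the median of all genes on log2(TPM + 0.1), the differences of the 8 fallers were all negative, from -0.99 for Brca2 and -0.87 for Rpa3 to -0.22 for Rad23b. A fall of these genes is therefore one relative to the bulk of genes tested, and with TPM no fall in the share of all transcripts was detectable. The part of mitochondrial transcripts in the difference between the scales was not tested.

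**Figure D4:**
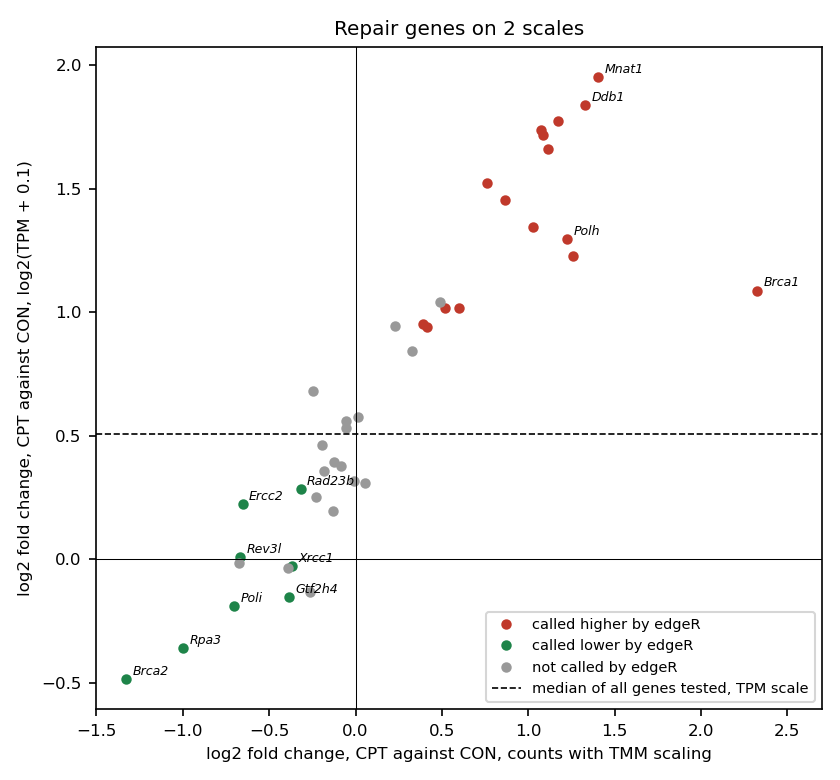
Log2 fold change of the 42 tested repair genes in CPT against CON on counts with TMM scaling (horizontal axis) and on log2(TPM + 0.1) (vertical axis), coloured by the edgeR call. The dashed line is the median of all genes tested on the TPM scale, 0.51, and all 8 genes called lower by edgeR lie under it.

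Neighbouring genes on the other strand bear on several values, since no label says that counting used strand. Eif5b shares 26.6% of the exonic bases of Rev1 and went the other way (log2 fold change -0.88 in CPT), Rffl shares 25.1% of those of Lig3 (0.05), Cd3eap 3.41% of those of Ercc1 (-0.56) and Tkfc 5.12% of those of Ddb1 (0.26). For Ercc2 the overlapping Klc3 and Gm26852 were at 0.142 CPM or less on average in every group. Over all genes here, long genes were called lower more often than short ones. The correlation of span with the log2 fold change in CPT (Spearman, across genes, which share libraries and are not independent) was -0.15 over 13432 genes and 0.05 over the 42 repair genes. Of genes spanning over 35.083 kb 22.4% were called higher and 39.3% lower, and of the 17 repair genes of that size 5 were called higher, among them Mnat1 with a span of 150 kb, and 3 lower.

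In AT3 against CPT, which sets side by side the 2 groups that share the cisplatin label, no repair gene was called by edgeR. The background was 4.68% of all genes tested (2.46% higher and 2.22% lower), and the count of 0 among 42 genes is read against that share. Leaving out a library of CPT or AT3 moved the background itself, from 1.22% without AT3 replicate 2 to 9.30% without CPT replicate 3. Log2 differences ran from -0.44 for Lig3 to 0.91 for Fan1 with a median of -0.00034, and the 95% interval of a gene reached 0.34 on the log2 scale to either side at the median. For a gene with an interval of that width, a difference smaller than that was not detectable here. The intervals are not adjusted for the number of genes tested, so larger differences could go uncalled as well. Lig3, for example, had an interval from -0.79 to -0.09 and was not called. By edgeR 5 of the 42 genes had an unadjusted p below 0.05, a smaller share than the 2833 of 13686 over all genes tested, and the lowest adjusted p was 0.137. DESeq2 gave an adjusted p to 40 repair genes, called 0 of them and had 3 with an unadjusted p below 0.05.

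The 5 genes, given as values without a call, are Lig3, Mad2l2, Pcna, Fan1 and Ercc6. Lig3 was lower in all 3 AT3 libraries than in any of CPT, at 4.08 to 4.82 CPM against 5.30 to 7.46, with a log2 difference of -0.44 (adjusted p = 0.137). Against CON the Lig3 level in AT3 was not called (log2 fold change 0.32, adjusted p = 0.124). Pcna was higher in all 3 AT3 libraries (13.5 to 15.1 CPM against 10.8 to 12.03, log2 difference 0.32, adjusted p = 0.185), and so was Fan1 (0.564 to 0.681 CPM against 0.318 to 0.346, log2 difference 0.91, adjusted p = 0.21). Ercc6 was lower, at 4.19 to 4.67 CPM against 5.27 to 5.94 (log2 difference -0.33, adjusted p = 0.226), while Ercc8 was at 1.97 to 2.88 CPM in AT3 and 1.77 to 1.85 in CPT. The Ercc6 to Ercc8 ratio was 0.842, 0.805 and 0.715 in CPT and 0.484, 0.406 and 0.533 in AT3. Among the other pairs, the ratios of Cdk7 to Ccnh, with a log2 difference of -0.33, and of Cul4a to Cul4b, with 0.24, did not overlap between AT3 and CPT either. Brca1 too did not overlap, with AT3 libraries at 1.61 to 1.64 CPM and CPT libraries at 1.03 to 1.17 (log2 difference 0.59, adjusted p = 0.289). In all, 9 tested members did not overlap between AT3 and CPT, 5 higher and 4 lower, against 27.0% of all genes tested.

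CPT replicate 3 stood between the other CPT libraries and the AT3 libraries on the second principal component of all tested genes, at -7.41 against -29.5 and -27.8 in CPT and 18.1 to 20.98 in AT3. For Mad2l2 and Ddb1 its level was above those of all AT3 libraries. Without CPT replicate 3, edgeR called both higher in AT3 than in CPT, Mad2l2 with a log2 difference of 0.75 (adjusted p = 0.00193) and Ddb1 with 0.31 (adjusted p = 0.0375).

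**Figure D5:**
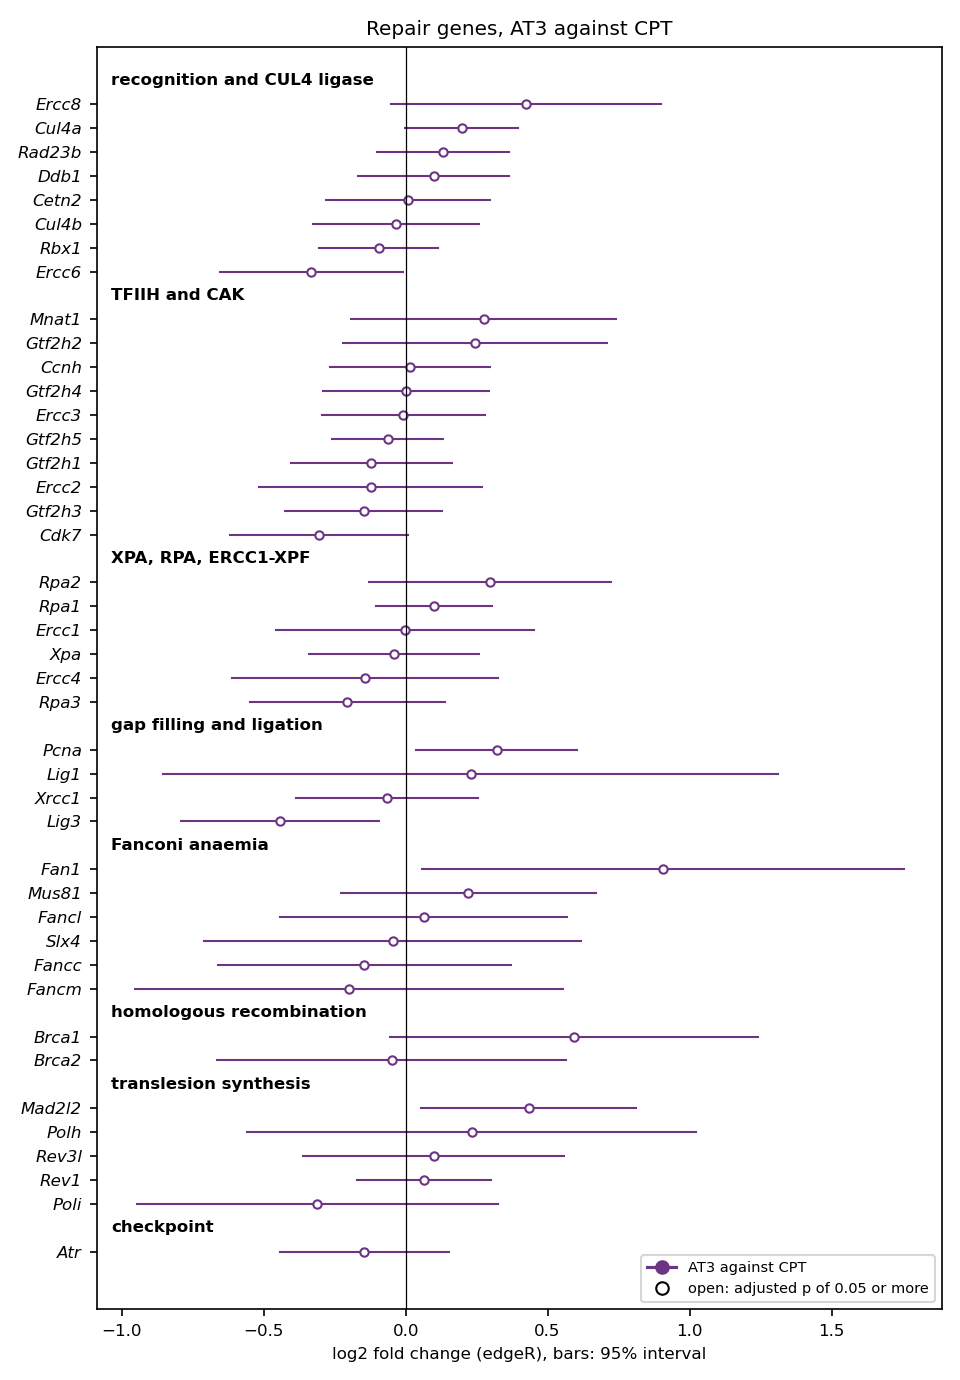
Log2 differences of the 42 tested repair genes between AT3 and CPT (horizontal axis), with 95% intervals from edgeR, grouped by role. All points are open (adjusted p of 0.05 or more), and they run from Lig3 at -0.44 to Fan1 at 0.91.

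AT3 against CON shares its CON libraries with the first comparison, and the values stand side by side here without being counted as separate support. In AT3, 16 genes rose, 9 fell and 17 were not called, against a background of 64.4% (31.5% higher, 32.9% lower), and for 28 of the 42 the libraries did not overlap, against 70.3% of all genes tested. Brca1 had a log2 fold change of 2.92 in AT3 and 2.33 in CPT, Mnat1 1.68 and 1.41, Pcna 1.49 and 1.17, Rpa2 1.33 and 1.03, Cul4a 1.27 and 1.08 and Mad2l2 0.95 and 0.52. Cdk7 had 0.78 in AT3 and 1.08 in CPT, and Ercc1 1.25 and 1.26. By edgeR Rpa1 was called higher in AT3 (log2 fold change 0.33, adjusted p = 0.00891), and Ercc6 (-0.51, adjusted p = 0.00846) and Gtf2h3 (-0.39, adjusted p = 0.0169) lower. The last 2 had a direction that turned on both TPM scales. There limma called Gtf2h3 higher (adjusted p = 0.0381 on log2(TPM + 1) and 0.0370 on log2(TPM + 0.1)) but did not call Ercc6. None of the 3 was called by edgeR in CPT, and none was called between AT3 and CPT. Leaving out 1 library ended the calls of Ercc6 (without CON replicate 1, adjusted p = 0.058) and of Gtf2h3 (without CON replicate 2, CON replicate 3, AT3 replicate 2 or AT3 replicate 3, adjusted p of 0.0504 to 0.0656). On both TPM scales 25 repair genes were called higher in AT3 than in CON and 0 lower, where 7017 of the 13686 genes tested were called higher and 1698 lower on log2(TPM + 1).

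Other genes of the same pathways also went both ways. Of 87 listed further repair genes of these pathways 74 were tested in CPT against CON, with 24 higher, 16 lower and 34 that did not pass (median log2 fold change 0.02). That is 54.1% called, beside 60.8% of all genes tested (30.0% higher and 30.8% lower). The counts of the shorter lists below are read against the same shares. On log2(TPM + 1) the split was 38 higher and 4 lower. Of 12 further excision repair genes 5 rose and 2 fell. Ercc5, the XPG nuclease that cuts on the 3′ side, rose from 4.66 CPM ± 1.11 to 11.3 ± 1.90 (log2 fold change 1.26, adjusted p = 2.68e-05). Cops5, the catalytic subunit of the signalosome that switches CUL4 ligases off, rose by 0.69 on the log2 scale (adjusted p = 4.34e-05). Hmgn1, a nucleosome-binding protein of transcription-coupled repair, rose from 8.89 CPM ± 1.70 to 19.5 ± 3.90 and was, of these 12, the gene called higher again in AT3, at 30.9 ± 1.67 (log2 difference from CPT 0.67, adjusted p = 0.015). Hltf, a translesion gene chosen here after its values were seen, was called lower in AT3 than in CPT (4.66 CPM ± 0.60 to 2.87 ± 0.11, log2 difference -0.70, adjusted p = 0.0241).

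Of 16 tested further Fanconi genes 5 rose and 4 fell. Faap20, a core complex subunit, rose by 1.80 on the log2 scale (adjusted p = 7.85e-07), Usp1, which removes ubiquitin from FANCD2, rose by 1.17 (adjusted p = 5.29e-06), and Slx1b, the nuclease partner of SLX4, fell by 1.05 (adjusted p = 2.05e-05). On log2(TPM + 0.1) the Slx1b difference was -0.41 and not called (limma, adjusted p = 0.107). Of 14 further recombination genes 2 rose and 5 fell, among them Swi5 (log2 fold change 0.79) and Rad54l (-2.15) and Nbn (-0.55, which turned to 0.04 on log2(TPM + 0.1)). Of 10 further translesion genes 4 rose and 1 fell: Polk, a bypass polymerase, rose from 1.85 CPM ± 0.39 to 7.94 ± 0.38 (log2 fold change 2.10, adjusted p = 2.18e-08), Pold4, a small subunit of polymerase delta, rose by 1.06, and Shprh, a ubiquitin ligase for PCNA, fell by 1.39. Among 11 further gap-filling genes 4 rose and 3 fell. Pole4 rose from 12.4 CPM ± 1.32 to 56.8 ± 7.24 (log2 fold change 2.19, adjusted p = 3.83e-10), while Pold1, the catalytic subunit of polymerase delta, fell by 1.46 (adjusted p = 8e-05). Rfc2, a clamp loader subunit, rose by 0.72. Of 11 checkpoint genes 4 rose and 1 fell, Tipin by 1.14, Rad1 by 1.13 and Rad17 by 0.77 on the log2 scale upward.

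In CPM, summed markers of dividing cells were lower in injured than in untreated liver, unlike Pcna, Brca1 and Rpa2. The sum of 20 proliferation markers ranged from 25.7 to 29.1 CPM among CON libraries, from 20.5 to 21.8 among CPT and from 20.6 to 22.8 among AT3, and of the 10 that were tested 1 rose and 2 fell. Mcm4 rose (log2 fold change 1.01, adjusted p = 0.0218) and Mcm2 (-1.57, adjusted p = 0.00268) and Mcm7 (-0.56, adjusted p = 0.00877) fell, all parts of the replicative helicase. On log2(TPM + 1) 2 of the 10 were called higher and 1 lower. On log2(TPM + 0.1) limma called 2 higher and 0 lower. The 2 were Tyms (1.52, adjusted p = 0.000245), which had a log2 fold change of -0.01 by edgeR, and Mcm4 (1.14, adjusted p = 0.00172). Neither Mcm2 (-0.77, adjusted p = 0.0714) nor Mcm7 (-0.38, adjusted p = 0.203) was called by limma on that scale.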

How the data were processed

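Per the labels' protocols, total RNA from a column extraction went into the SMARTer mRNA-seq library preparation; strandedness is not stated. The authors deposited estimated counts per gene (7.96 to 9.55% of values per library not whole) and TPM values. The builds GRCm38, mm10 and GRCm39 appear, with no role, in the submitters' processing notes; aligner and counting tool were not given in the sources used here. Estimated counts were rounded and tested with edgeR 4.0.16 (R 4.3.3): TMM scaling, its filter on low counts, 1 quasi-likelihood fit over the 9 libraries by group, Benjamini-Hochberg adjustment over 13686 genes and calls at adjusted p < 0.05. The fit was tested on simulated data. Limma 3.58.1 (on log2 of TPM plus 1 or 0.1) and DESeq2 1.42.0 served as alternatives. GENCODE M21 (GRCm38) held all 47 genes and gave coordinates. Replicates differed beyond sampling noise (chi-square per degree of freedom 7.07 to 97.0). Members and lists were chosen with earlier results of these data known. Genes given library by library were, per role, up to 3 called in CPT against CON with the largest change (Fancc, uncalled, for the Fanconi group), and, from the other lists, up to 3 with the smallest p. Mad2l2 and the partner pairs were added after their values were seen. Total counts of 21485021 to 28480479 put 3 counts at 0.105 to 0.140 CPM before TMM scaling.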

Additional observations from a re-analysis of the deposited data

How the results depend on the processing

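Of the genes that rose in CPT against CON, 14 of 16 were called in the same direction under every alternative run (the exceptions were Mad2l2 and Polh), while 0 of the 8 that fell were; on both TPM scales none passed the test. Ercc2, Rpa3 and Brca2 lost their call on the TPM scales only. In CPT against CON the genes called lower numbered 8 by edgeR, 0 on both TPM scales, 4 with only the 6 libraries compared, and 5 to 8 when a library was left out. The last counts can include Fanca, Palb2 or Ercc3, which the main fit did not call. Of the 8 fallers themselves, 4 to 7 kept their call when a library was left out. The median log2 fold change was 0.32 and 0.57 on log2(TPM + 1) and log2(TPM + 0.1), and -0.0090 to 0.25 when a library was left out, highest without CON replicate 2. Rad23b turned to 0.27 and 0.28 on the 2 TPM scales, Ercc2 to 0.17 and 0.23, and Rev3l to 0.0095 on log2(TPM + 0.1). In AT3 against CPT, 1 gene was called, higher, without the filter on low counts (Mad2l2, adjusted p = 0.0245), 0 to 2 when a library was left out, and the median was 0.060 on log2(TPM + 0.1) and -0.014 to 0.076 when a library was left out. In AT3 against CON, 5 genes were called lower by DESeq2 against 9 by edgeR, 25 were called higher and 0 lower on both TPM scales, and the median was 0.72 on log2(TPM + 0.1) and 0.10 to 0.29 when a library was left out, lowest without AT3 replicate 1. There Ercc6 turned to 0.13 and 0.33 on the 2 TPM scales, Ercc2 to 0.095 and 0.12, Gtf2h3 to 0.46 and 0.65, and Rev3l to 0.12 and 0.32. Of these, limma called Gtf2h3 higher on both scales and did not call the others. With the replicate number as a block, 16 genes were called higher and 6 lower in CPT against CON (Xrcc1 and Poli lost their call), 0 in AT3 against CPT, and 16 higher and 9 lower in AT3 against CON. Correlations between the deviations of same-numbered libraries were small (-0.038 to 0.076). Between CPT and AT3 they were 0.052, 0.076 and 0.067, against -0.058 to -0.018 for libraries of different number. Whether the numbers pair these libraries cannot be told from such small values. The TPM values carry no TMM scaling; the cause of these changes was not tested. Depth limits Fanca, Fancd2, Fanci, Palb2, Chek1, Lig1, Fan1 and Brca1 most.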

Other observations

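Repair genes outside excision and crosslink repair also went both ways. Of 20 tested genes of base excision repair, mismatch repair and end joining, 10 rose and 5 fell in CPT against CON, with a median log2 fold change of 0.57, and 11 rose and 3 fell on log2(TPM + 1). By edgeR 75% of this list was called, beside 60.8% of all genes tested. Mpg, the glycosylase that removes alkylated bases, stood at 3.38 CPM ± 0.70 (SD, n = 3) in CON, 9.27 ± 0.54 in CPT and 8.36 ± 0.91 in AT3 (edgeR log2 fold change 1.45, adjusted p = 9.24e-07 in CPT). Ung, the glycosylase that removes uracil, rose from 2.02 CPM ± 0.77 to 6.84 ± 0.84 (adjusted p = 3.75e-06). Xrcc5, encoding the KU80 subunit that binds broken ends, rose from 12.8 CPM ± 1.32 to 23.6 ± 1.69 (adjusted p = 3.68e-06). No gene of this list was called between AT3 and CPT by edgeR, and 2 had an unadjusted p below 0.05.

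All 14 listed p53 target genes rose in CPT, with a median log2 fold change of 2.98, and all 14 were higher on the TPM scales too. Phlda3, an inhibitor of AKT signalling, went from 0.755 CPM ± 0.029 in CON to 58.8 ± 2.88 in CPT and 42.4 ± 2.82 in AT3, and was called lower in AT3 than in CPT by edgeR (log2 difference -0.47, adjusted p = 0.00754) but not on log2(TPM + 0.1) (-0.32, limma adjusted p = 0.64). Between AT3 and CPT edgeR called 1 of the 14 higher, Trp53inp1 (log2 difference 0.50, adjusted p = 0.0159), and 2 lower, Phlda3 and Bax (-0.47, adjusted p = 0.0155), and 11 did not pass. On that scale limma called neither Trp53inp1 (adjusted p = 0.277) nor Bax (adjusted p = 0.344). Ccng1 rose from 12.3 CPM ± 1.13 to 177 ± 9.89 and Aen, an exonuclease induced by p53, from 12.4 ± 0.97 to 94.1 ± 1.76. Of the repair genes above, Pcna and Polh are known p53 targets too, and Ddb2 and Xpc, also known as such mainly in human cells, were not called.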
